A study of Mus musculus with 18 samples.

Results

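Adipocytes store fatty acids as triglyceride in lipid droplets and give them back by lipolysis. The 10 genes followed here, Adipoq, Plin1, Plin2, Fabp4, Cd36, Lpl, Lipe, Pnpla2, Cidec and Adhfe1, were chosen by symbol, with earlier results of these data known, and all 10 were present among the 54347 genes of the table. Expression was measured by bulk RNA-seq in mesenchymal stem cells (MSC), in 18 libraries that form 6 groups of 3. The study describes the MSC as a primary line made in its laboratory from the marrow of male C57BL/6J mice. The untransfected groups were cells without treatment (control), cells given CK666, which blocks the nucleation of branched actin by the Arp2/3 complex, and cells given cytochalasin D (CytoD), which blocks actin polymerization. The study describes the expression changes with these drugs as early, several days before such cells reach a terminal phenotype. The transfected groups received a control siRNA, called mock in one label (siControl), an siRNA against Arp4, the actin-related protein encoded by Actl6a (siArp4), or the Arp4 siRNA together with CK666 (siArp4+CK666). The study describes 3 distinct preparations for each condition, and no transfected group with control siRNA and CK666 was analysed here, so an effect of the knockdown on the CK666 response cannot be told apart from one of transfection or experiment. The study itself displayed 7 of these genes as adipogenic markers of the untransfected cells (all but Plin2, Lpl and Pnpla2), so for those 7 the first experiment is not independent evidence of a direction.

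The genes cover the route of fat through the cell. Lpl, lipoprotein lipase, is secreted and frees fatty acids from lipoproteins, Cd36 is a membrane protein that takes up long-chain fatty acids, and Fabp4 binds them in the cytoplasm. Perilipins coat the lipid droplet. Plin1 is the perilipin of adipocytes and holds back lipolysis until it is phosphorylated, whereas Plin2 coats droplets in most cell types, and Cidec, also known as FSP27, acts with Plin1 to enlarge droplets. Release starts with Pnpla2, the adipose triglyceride lipase, and goes on with Lipe, the hormone-sensitive lipase. Adipoq encodes the secreted hormone adiponectin, and Adhfe1 encodes a mitochondrial enzyme that oxidizes hydroxy acids and is expressed in adipocytes.

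In the GENCODE annotation of GRCm38, Adipoq lies at chr16:23146536-23158028 on the plus strand, Plin1 at chr7:79720218-79732903 on the minus strand, Plin2 at chr4:86648386-86670060 on the minus strand, and Cd36 at chr5:17781690-17888801 on the minus strand. Fabp4 lies at chr3:10204088-10208576 (minus), Lpl at chr8:68880491-68907448 (plus), Lipe at chr7:25379527-25398710 (minus), Pnpla2 at chr7:141455198-141460743 (plus), Cidec at chr6:113424634-113435760 (minus) and Adhfe1 at chr1:9547948-9580673 (plus). All are protein-coding. Exons of Lipe share 918 bases with the antisense gene 4732471J01Rik, which had a mean of 3.30 counts, and those of Adhfe1 share 154 bases with 2610203C22Rik on the opposite strand, which had a mean of 1.27. The libraries are unstranded, so reads from these overlaps cannot be assigned to one strand.

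The RefSeq promoter windows of GRCm38.p6 held 9 windows for 7 of the 10 genes. The bases before the start site are shown for Adipoq, Cd36 and Plin1, which were called in both the knockdown and the CK666 comparisons, and for Plin2 and Pnpla2, which were called with CK666 and not with the knockdown. Sequences are written 5′ to 3′ on the strand of the gene, without any base that lies in an annotated exon, and capitals mark each match to a motif named in the next paragraph. The windows are chr16:23146286-23146535 (Adipoq), chr5:17835897-17836146 (Cd36), chr7:79732904-79733026 (Plin1), chr4:86670061-86670309 (Plin2) and chr7:141454938-141455187 (Pnpla2). The Cd36 window lies inside the GENCODE span given above, so it precedes an internal RefSeq start and not the outermost start of that span.
Adipoq: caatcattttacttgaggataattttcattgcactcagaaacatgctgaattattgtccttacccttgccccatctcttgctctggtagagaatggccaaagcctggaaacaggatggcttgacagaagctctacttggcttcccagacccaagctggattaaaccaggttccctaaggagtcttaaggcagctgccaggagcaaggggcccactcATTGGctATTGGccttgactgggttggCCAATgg
Cd36: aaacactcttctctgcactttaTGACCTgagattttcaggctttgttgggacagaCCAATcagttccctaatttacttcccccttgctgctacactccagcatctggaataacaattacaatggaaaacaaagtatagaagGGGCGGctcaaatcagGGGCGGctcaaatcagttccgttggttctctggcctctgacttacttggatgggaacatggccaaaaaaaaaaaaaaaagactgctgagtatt
Plin1: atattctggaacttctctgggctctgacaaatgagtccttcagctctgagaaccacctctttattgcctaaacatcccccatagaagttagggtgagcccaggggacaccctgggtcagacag
Plin2: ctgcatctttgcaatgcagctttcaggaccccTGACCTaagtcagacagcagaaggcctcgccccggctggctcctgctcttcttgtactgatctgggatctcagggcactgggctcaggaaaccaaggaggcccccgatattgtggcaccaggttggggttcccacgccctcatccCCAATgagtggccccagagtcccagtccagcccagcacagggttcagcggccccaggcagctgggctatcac
Pnpla2: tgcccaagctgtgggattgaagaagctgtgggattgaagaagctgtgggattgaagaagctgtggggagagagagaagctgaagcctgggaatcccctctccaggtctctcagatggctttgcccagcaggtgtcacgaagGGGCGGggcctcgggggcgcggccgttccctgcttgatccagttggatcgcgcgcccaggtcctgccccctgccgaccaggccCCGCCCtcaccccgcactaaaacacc

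Each window of 250 bases before the start site was searched on both strands, and the share of 32536 distinct RefSeq windows with a match was counted for comparison. CCAAT matched in Adipoq, Cd36 and Plin2 and in 33.8% of all windows, and Adipoq held 3 copies within its last bases before the start. AGGTCA, the half-site of nuclear receptors, matched in Cd36 and Plin2 and in 14.0% of all windows. GGGCGG matched in Cd36, Lipe and Pnpla2 (33.0% of all windows) and CACGTG in Lipe (6.04%). No member window held TATAAA (12.3% of all windows), the palindromic C/EBP site TTGCGCAA (0.166%) or the CArG box bound by serum response factor (1.48%), within which a CCAAT can lie. Plin1 and Cidec had no match to any of these letters.

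Libraries held between 18075610 and 24733212 assigned fragments. Actl6a checked the labels of the knockdown, with 720.1 to 1127 normalized counts (counts divided by a size factor for each library, set within each experiment) in siControl, 19.0 to 57.2 in siArp4 and 9.52 to 22.9 in siArp4+CK666. Libraries differed in a trend with gene length, and siControl replicate 2 stood apart, its shortest sixth of genes lying 0.998 log2 units above the mean over libraries and its longest sixth 0.63 below. For siControl replicate 3 these values were 0.47 and −0.39, and in the other 16 libraries both stayed within −0.38 and 0.39. A fit with this trend removed, chosen after seeing it, and fits without each library are given beside the results whose call they change or whose fold they move by over 1.5 times. Among stromal markers Pdgfra was well detected, while Thy1 stayed under 3 counts in every library. Of 8 adipocyte markers outside the 10 genes, Pparg, Cebpa and Plin4 were abundant, with 3744, 6025 and 5781 mean counts in control, Lep and Ucp1 stayed under 3 counts in every library, and Cfd, Retn and Plin5 were at most at 8.28. The summed counts of the 8 ran from 15428 to 15641 in control, 16489 to 17549 with CK666, 29177 to 30385 with CytoD, 11458 to 14175 in siControl, 7755 to 7982 in siArp4 and 13570 to 15018 in siArp4+CK666. Plin4 and Cebpa were called higher with CytoD, Cebpa not so without control replicate 2 or CytoD replicate 3. Ptprc, Itgam and Aif1 of leukocytes and Cdh5, Emcn, Tie1, Gpihbp1 and Cldn5 of endothelium stayed under 3 counts in every library. In such bulk samples, fewer cells of a type and less RNA per cell cannot be told apart.

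Per unit of exon length, the 10 genes spanned several orders of magnitude. On this scale, where all genes of a library sum to 1000000, Plin2 stood at 265 ± 4.23 (SD, n = 3) and Lpl at 252 ± 5.70 (SD, n = 3) in control, at the 95.6th and 95.4th percentile of the genes with a mean of at least 10 counts. Pnpla2 followed at 65.5 ± 3.32 (SD, n = 3), Fabp4 at 29.7 ± 1.61 (SD, n = 3) and Adipoq at 7.05 ± 2.86 (SD, n = 3). The other 5 genes lay below 1 in control, and Plin2 and Lpl remained the 2 highest in all 6 groups. The general droplet coat and the secreted lipase were thus the most abundant of the 10 throughout.

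**Figure D1:**
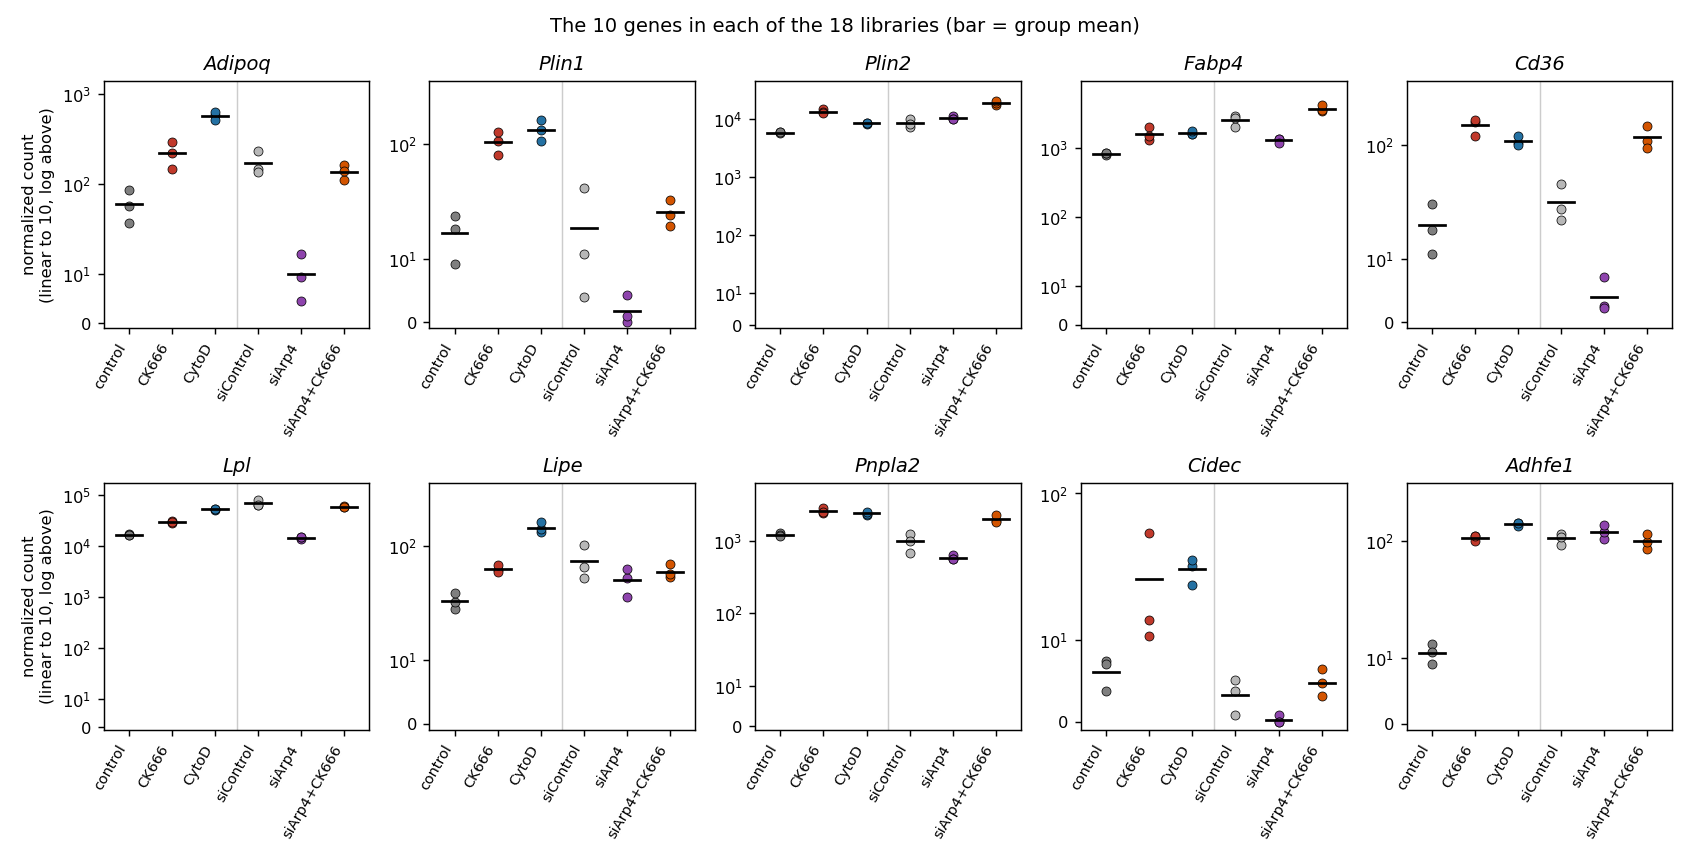
Normalized counts (vertical axis, linear up to 10 and logarithmic above) of the 10 genes in each library of the 6 groups (horizontal axis), scaled together over the 18 libraries; points are libraries and bars are group means. Adipoq, Plin1 and Cd36 are lowest in siArp4, and Adhfe1 is low only in the 3 control libraries, between 9.08 and 13.1.

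The first experiment asked how the 2 actin drugs change expression against untreated cells. Of the 10 genes, 7 rose with CK666 (Adipoq, Plin1, Plin2, Cd36, Pnpla2, Cidec and Adhfe1) and none fell, at a Benjamini-Hochberg adjusted p below 0.01 and an absolute log2 fold change over 1 in DESeq2, where 11.0% of all 14597 genes tested were called, 4.89% higher and 6.06% lower. With CytoD 7 rose as well (Adipoq, Plin1, Cd36, Lpl, Lipe, Cidec and Adhfe1) and none fell, against 9.12% of 13717 genes called, 4.80% higher and 4.32% lower. The median log2 fold change of the 10 genes was 1.56 with CK666 and 2.22 with CytoD, beside 0.01 over all genes tested in each comparison. All 10 reached an adjusted p below 0.01 in both comparisons, as did 30.0% and 29.6% of all genes. In both, the 3 treated libraries lay above the 3 control libraries for all 10, where 47.5% and 58.9% of all genes showed no overlap in either direction. The drugs were compared with the same 3 control libraries.

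Adipoq counted 89.0, 38.0 and 58.0 in the control libraries, 309, 232 and 153 with CK666 and 598, 525 and 657 with CytoD. The 3 groups formed 3 separate steps without overlap, control lowest and CytoD highest. Adipoq rose by 1.91 log2 units with CK666 (SE 0.31, DESeq2 adjusted p 8.56e-09) and 3.27 with CytoD (SE 0.31, DESeq2 adjusted p 1.52e-24). The control libraries themselves spread widely for this gene, with a coefficient of variation of 41.7%, against 11.2% with CytoD.

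Both perilipins rose with CK666, from very different levels. Plin1 counted 24.2, 18.5 and 9.31 in control, 111, 132 and 82.8 with CK666 and 137, 108 and 166 with CytoD, so that the drug groups overlapped each other and neither overlapped control. Its log2 fold change was 2.64 ± 0.36 (SE) with CK666 and 2.98 ± 0.36 with CytoD, both called. Plin2 counted 5959, 5678 and 5991 in control, 14898, 13157 and 12893 with CK666 and 8263, 8643 and 8673 with CytoD. The ubiquitous coat gene was highest with CK666 and, unlike Plin1, took an intermediate place with CytoD. It rose 1.22 log2 units with CK666 (SE 0.09, DESeq2 adjusted p 1.61e-42), while its difference with CytoD was 0.54 log2 units, short of the fold minimum at an adjusted p of 7.88e-09 in DESeq2.

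Cidec was among the rarest of the 10. It counted 7.74, 3.90 and 7.24 in control, 56.0, 14.3 and 11.2 with CK666 and 24.4, 32.9 and 36.1 with CytoD. One CK666 library was several times higher than the other two, while the CytoD libraries were close together. The call with CK666 (log2 fold change 2.11, DESeq2 adjusted p 0.00937) was lost under 11 of 16 alternative fits, and without CK666 replicate 1 the change was 1.02 log2 units with an adjusted p of 0.239 in DESeq2. Leaving out any 1 control or CytoD library also ended the call (DESeq2 adjusted p 0.0150 to 0.0587). With CytoD the change was 2.31 log2 units (DESeq2 adjusted p 0.00399), and 7 of 16 alternatives lost the call, among them edgeR's quasi-likelihood test (adjusted p 0.0204) and the fits without any 1 control or CytoD library (DESeq2 adjusted p 0.0109 to 0.0316).

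Of the genes for fatty acid uptake, Cd36 changed most. It counted 18.4, 31.2 and 11.4 in control, 125, 163 and 170.2 with CK666 and 105, 101 and 123 with CytoD, and each CK666 library lay above each CytoD library. The ratio of means to control was 7.52 with CK666 and 5.39 with CytoD, with log2 fold changes of 2.90 ± 0.33 (SE) and 2.42 ± 0.33. Macrophages and endothelial cells also express Cd36. The summed counts of the 10 leukocyte markers ran from 224 to 289 in control, 179 to 249.5 with CK666 and 356 to 388 with CytoD. Cd68 and Lyz2 were called higher with CytoD. Lyz2 was at 0.99 and not called with the length trend removed. It was also not called in 8 fits with 1 library left out (0.86 to 1.21 over all such fits). In all these groups 5 of the 10 markers (Ptprc, Adgre1, Itgam, Aif1 and Tyrobp) stayed under 3 counts. The 9 endothelial markers summed to 18.4 to 59.4 in control, 72.7 to 245.5 with CK666 and 70.1 to 85.2 with CytoD. Vwf was called higher with CK666 (1.99, or 1.32 and not called without CK666 replicate 3), and the 5 markers named above stayed under 3 counts. The part of these cells in the Cd36 values was not tested.

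Lpl was by count the most abundant of the 10 genes. It counted 17211, 16419.9 and 16277 in control, 29181, 31108 and 29674 with CK666 and 52021, 53280.4 and 54061 with CytoD, in 3 steps without overlap. The lipase rose with CytoD by 1.67 log2 units (SE 0.07, DESeq2 adjusted p 4.89e-132). With CK666 the difference was 0.85 log2 units with a 95% interval from 0.72 to 0.98, short of the fold minimum. Fabp4 counted 805, 869 and 844 in control, 2094, 1333 and 1533 with CK666 and 1631, 1600.1 and 1770.2 with CytoD. Its log2 fold changes of 0.98 and 0.99 sat just below the minimum of 1, while the DESeq2 adjusted p values were 2.03e-08 and 1.4e-08. With TMM size factors the CK666 value was 1.004 and the gene was called, and with the length trend removed the CytoD value was 1.03 and was called. Fabp4 was also called with CK666 without control replicate 2, CK666 replicate 2 or CK666 replicate 3 (up to 1.12), and with CytoD without control replicate 2, CytoD replicate 1 or CytoD replicate 2 (up to 1.02).

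Both lipases of the droplet had higher counts with each drug. Pnpla2 counted 1327, 1227 and 1185 in control, 2988, 2512 and 2608 with CK666 and 2349.8, 2414 and 2585 with CytoD, the drug groups overlapping each other. It rose with CK666 by 1.12 log2 units (SE 0.11) and had a difference of 0.97 (SE 0.11) with CytoD, just short of the minimum and at 1.02 without control replicate 1 and 1.002 without CytoD replicate 1, which were called. Lipe counted 29.0, 33.1 and 40.4 in control, 63.9, 62.2 and 70.7 with CK666 and 136, 144 and 168 with CytoD. Its 3 groups did not overlap, and CytoD gave the highest values. Lipe rose with CytoD by 2.13 log2 units (SE 0.26, DESeq2 adjusted p 2.08e-15), and with CK666 the difference was 0.94 (SE 0.27, DESeq2 adjusted p 0.00169), or 1.08 and called without control replicate 3.

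Adhfe1 had the largest log2 fold change of the 10 in both comparisons. It counted 13.5, 11.7 and 9.31 in control, 115, 103 and 114 with CK666 and 146, 138 and 145 with CytoD. The libraries of each group were close together and the step from control was 9.62-fold with CK666 and 12.4-fold with CytoD. On the log2 scale this was 3.26 ± 0.32 (SE) and 3.63 ± 0.31.

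**Figure D2:**
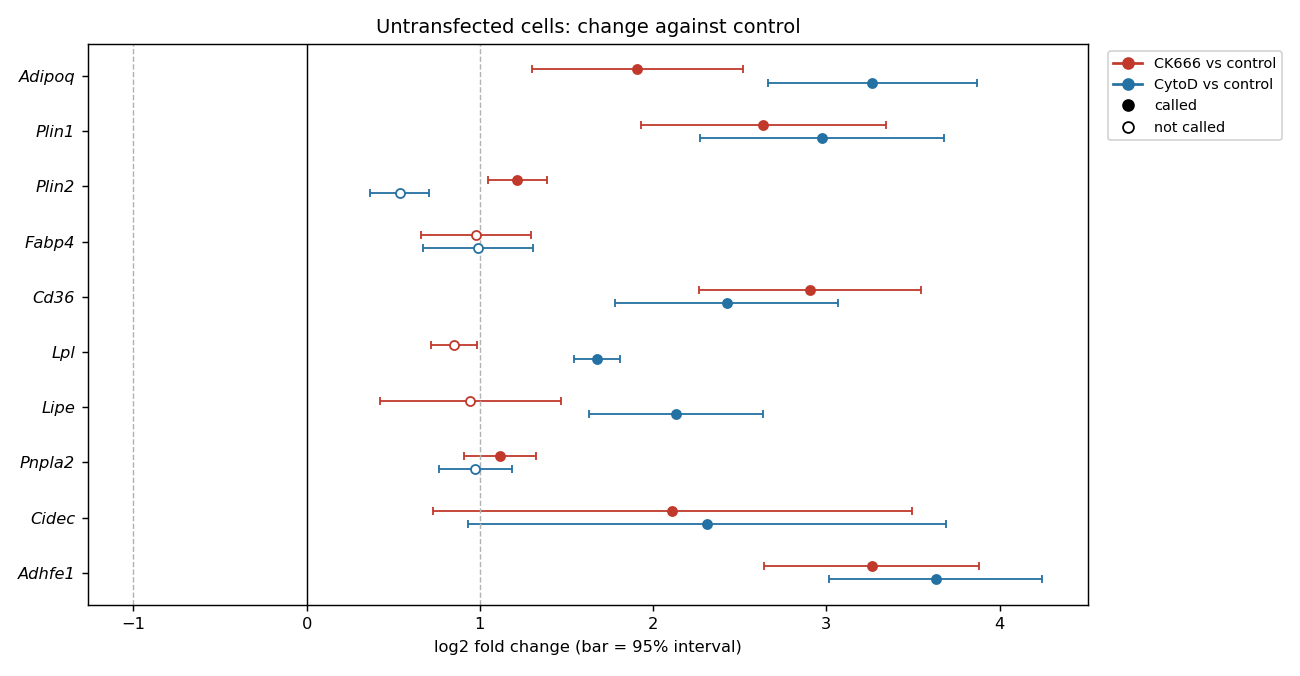
Log2 fold change against control (horizontal axis) of the 10 genes (vertical axis) with CK666 and with CytoD, from DESeq2; points are estimates from 3 libraries a group, bars are 95% intervals, filled points were called and dashed lines mark the fold minimum. All 20 estimates lie above 0, from 0.54 for Plin2 with CytoD to 3.63 for Adhfe1 with CytoD.

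Set directly against each other, the drugs differed in 2 of the 10 genes, Adipoq and Lipe, both lower with CK666, where 11.8% of 15038 genes were called, 5.08% higher and 6.74% lower. Without the fold minimum 4 of the 10 differed, as did 31.8% of all genes. The log2 difference of CK666 from CytoD was −1.36 for Adipoq (SE 0.29, DESeq2 adjusted p 2.31e-05) and −1.19 for Lipe (SE 0.24, DESeq2 adjusted p 3.39e-06). Lpl was −0.82 and Plin2 0.68 log2 units apart, both with an adjusted p below 0.01 and short of the fold minimum. For Fabp4 the difference was −0.01 with a 95% interval from −0.33 to 0.31, for Pnpla2 0.14 with an interval from −0.06 to 0.35, and for Plin1 −0.34 with an interval from −0.95 to 0.27. The libraries with CytoD held more transcript of adiponectin and of the hormone-sensitive lipase than those with CK666.

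The second experiment asked what loss of Arp4 does. Of the 10 genes, 4 fell with siArp4 against siControl (Adipoq, Plin1, Cd36 and Lpl) and none rose, where 16.2% of 15415 genes were called, 6.69% higher and 9.49% lower. The median log2 fold change of the 9 genes other than Cidec, which had too few counts here for a fold change, was −0.99, beside −0.05 over all genes tested. Several genes had a wide spread in siControl, where the trend with gene length was largest. With that trend removed 4 genes were again called, and 4 were called without siControl replicate 2.

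Adipoq counted 148, 132 and 231 in siControl and 16.0, 4.32 and 9.02 in siArp4. The highest siArp4 library lay far below the lowest siControl library. The mean fell 17.4-fold, with a log2 fold change of −4.09 (SE 0.45, DESeq2 adjusted p 2.62e-18), and without siControl replicate 2 the value was −4.24. Cd36 counted 45.3, 21.4 and 27.1 in siControl and 2.53, 2.16 and 7.01 in siArp4. The fatty acid carrier was down to a few counts in each knockdown library, and the change on the log2 scale came to −3.03 (SE 0.59, DESeq2 adjusted p 3.56e-06), or −3.74 without siArp4 replicate 3. The leukocyte markers summed to 153 to 395 counts in siControl and 175 to 191 in siArp4 and the endothelial markers to 15.1 to 30.2 and 14.3 to 121, and their part in the fall of Cd36 was not tested. Lpl counted 62076, 75280.5 and 62143 in siControl and 13131, 14367 and 14607 in siArp4. The groups were far apart, and the change had the smallest standard error of the set, −2.24 log2 units with a 95% interval from −2.51 to −1.98.

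Plin1 counted 10.9, 3.77 and 41.1 in siControl and 4.21, 0 and 1.002 in siArp4. The groups overlapped, 1 siControl library was near the knockdown level and another far above it. The log2 fold change of −3.35 (SE 1.07, DESeq2 adjusted p 0.00735) lost its call under 10 of 16 alternative fits, and without siControl replicate 3 it was −2.03 with an adjusted p of 0.142 in DESeq2. Without siArp4 replicate 1 it was −5.17. Without any 1 library of siArp4 or siArp4+CK666 the adjusted p was 0.0121 to 0.0411 in DESeq2. Cidec was at 0.838, 5.03 and 3.74 counts in siControl and 0.842, 0 and 0 in siArp4, too few for a fold change to be given.

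For Plin2 the interval of the difference included 0. It counted 7258, 9629 and 8155 in siControl and 10576, 9735 and 9678 in siArp4, and its log2 difference was 0.26 (95% interval from −0.04 to 0.56). Fabp4 counted 1997, 2789 and 2635 in siControl and 1301, 1293 and 1152 in siArp4, without overlap, and its change of −0.99 log2 units (DESeq2 adjusted p 8.97e-07) was just short of the fold minimum, and was −1.12 without siControl replicate 1 and −1.01 without siArp4 replicate 1 or 2. The lipases were not called. Pnpla2 counted 689, 1209.7 and 1002 in siControl and 627, 549 and 544 in siArp4, a log2 difference of −0.75, and Lipe counted 52.8, 101 and 66.3 in siControl and 35.4, 51.8 and 62.1 in siArp4, a log2 difference of −0.55. Adhfe1 stood at 114, 90.5 and 108 in siControl and 101, 116 and 133 in siArp4, with a log2 difference of 0.15 (95% interval from −0.31 to 0.62).

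When CK666 was given to the knockdown cells, 3 of the 10 genes stood above siControl (Plin2, Cd36 and Pnpla2) and none below, where 20.4% of 15415 genes were called, 8.06% higher and 12.4% lower. Cd36 counted 146, 107 and 91.7 in siArp4+CK666, a log2 fold change of 1.86 (SE 0.43) against siControl. The endothelial markers summed to 49.6 to 87.8 counts here, above each siControl library, with Kdr called higher (3.79 to 23.4 mean counts) and 7 of the 9 under 3 counts in every library of the group, and the leukocyte markers to 148 to 396. Their part in the value of Cd36 was not tested. Plin2 counted 17225, 18077 and 19526, the highest values of this gene in any group, with a change of 1.13 (SE 0.15). Pnpla2 counted 1861, 1817 and 2172, and its change of 1.01 dropped under the fold minimum without siControl replicate 1 (0.82) or without siArp4+CK666 replicate 3 (0.93). Adipoq counted 165, 109 and 135 and Lpl 56309.8, 58925 and 56406, and neither was called against siControl, with log2 differences of −0.32 (95% interval from −1.05 to 0.40) and −0.22 (95% interval from −0.48 to 0.04). Fabp4 counted 3339, 3397 and 4032, above every siControl library, with a log2 difference of 0.54 and a DESeq2 adjusted p of 0.0106.

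**Figure D3:**
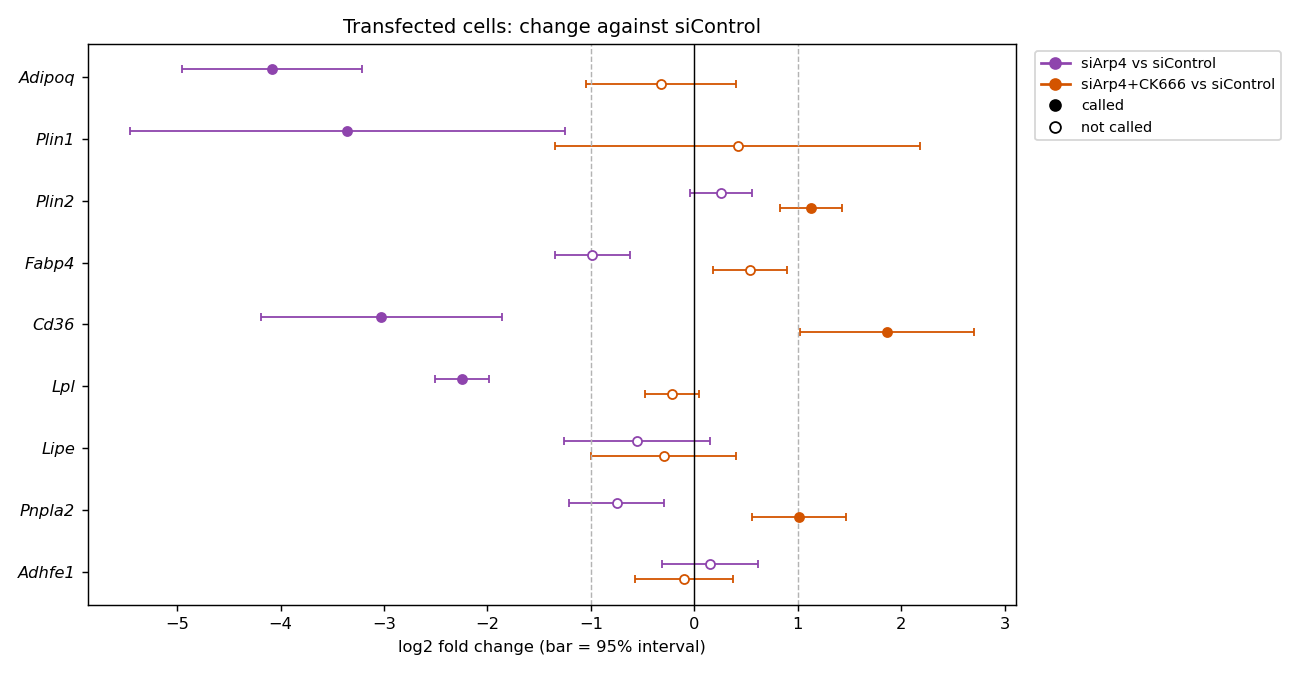
Log2 fold change against siControl (horizontal axis) of 9 of the genes (vertical axis, Cidec left out for its low counts) in siArp4 and in siArp4+CK666, from DESeq2; points are estimates from 3 libraries a group, bars are 95% intervals and filled points were called. Adipoq, Plin1, Cd36 and Lpl lie below −1 with siArp4, and Plin2, Cd36 and Pnpla2 lie above 1 with siArp4+CK666.

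Within the knockdown, CK666 raised 6 of the 9 genes that could be tested (Adipoq, Plin1, Fabp4, Cd36, Lpl and Pnpla2) and lowered none, where 5.75% of 14098 genes were called, 1.63% higher and 4.12% lower. The median log2 fold change of these 9 was 1.77, beside 0.02 over all genes tested. Cd36 rose 29.4-fold from the counts given above (log2 fold change 4.89, SE 0.58, DESeq2 adjusted p 3.77e-15, and 5.60 without siArp4 replicate 3) and Adipoq 13.9-fold (3.76, SE 0.45). Plin1 counted 32.8, 19.1 and 23.2 in siArp4+CK666, above each siArp4 library, and its change of 3.77 log2 units lost the call under 7 of 16 alternatives, edgeR's quasi-likelihood test (adjusted p 0.0595) and the fits without any 1 library of either group (DESeq2 adjusted p 0.0179 to 0.0478) among them, while the estimate without a library ran from 3.23 to 5.59, highest without siArp4 replicate 1. Lpl rose by 2.03, Pnpla2 by 1.77 and Fabp4 by 1.52 log2 units, none with overlapping groups. Plin2 stood 0.87 log2 units higher, under the fold minimum at a DESeq2 adjusted p of 4.11e-07. Lipe counted 53.9, 56.3 and 67.4 and Adhfe1 85.6, 96.3 and 112, both overlapping the siArp4 libraries, with differences of 0.26 (95% interval from −0.46 to 0.97) and −0.25 (95% interval from −0.72 to 0.22). Cidec counted 3.17, 4.77 and 6.32 and received no adjusted p from DESeq2.

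Whether CK666 acted differently in the knockdown cells was tested as the difference of its log2 effects over all 18 libraries. The difference was called for 2 of the 10 genes, Lpl and Adhfe1, where 4.42% of 13511 genes were called, 1.90% with a larger and 2.52% with a smaller value in the knockdown. For Lpl the effect was larger with the knockdown, by 1.17 log2 units (SE 0.13, DESeq2 adjusted p 4.98e-18), and with the length trend removed the difference was 0.96, under the fold minimum. For Adhfe1 it was −3.51 (SE 0.35, DESeq2 adjusted p 2.86e-21). Adhfe1 was already high in the transfected cells, between 93.1 and 114 in siControl, where counts scaled over all 18 libraries gave 9.08 to 13.1 in untransfected control and 99.5 to 110.4 with CK666. Adipoq (1.84, DESeq2 adjusted p 0.0104) and Cd36 (1.98, DESeq2 adjusted p 0.0183) had larger estimates than Lpl and did not pass. With the length trend removed, Adipoq was called at 2.18 (DESeq2 adjusted p 0.00346), and without siControl replicate 1, which is in neither arm of this contrast, 4 genes were called, Adipoq and Cd36 among them. Adipoq also passed without control replicate 2, CK666 replicate 1, siControl replicate 2 or 3 or siArp4 replicate 1, and Cd36 without control replicate 3. Over the fits with a library left out, the Cd36 estimate ran from 1.53 to 2.69.

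**Figure D4:**
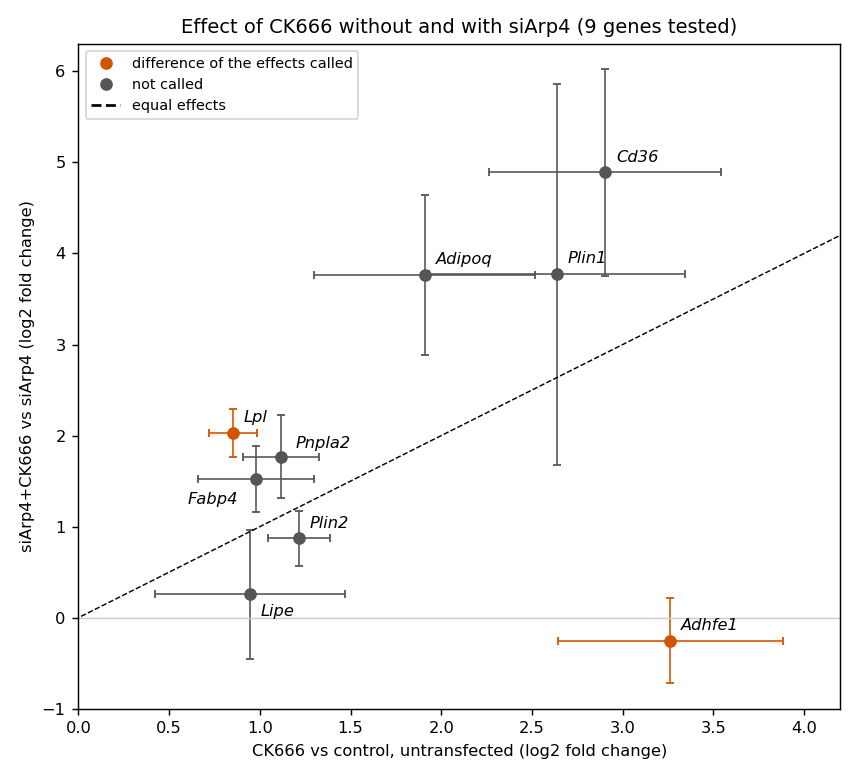
Log2 fold change with CK666 in untransfected cells (horizontal axis) against that in siArp4 cells (vertical axis) for the 9 genes tested in both, from DESeq2; bars are 95% intervals, the dashed line marks equal effects and colour marks a called difference. Adhfe1 lies far below the line, at 3.26 and −0.25, and Lpl above it, at 0.85 and 2.03.

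The level of each gene over all 6 groups, on the scale of the 18 libraries, gave different orders. For Adipoq the groups ran from siArp4 (4.42 to 16.4) over control (37.0 to 86.3) to CytoD (512 to 642), and siArp4+CK666, siControl and CK666 lay between control and CytoD and overlapped one another. Lpl ran from siArp4 (13471 to 14973) and control (15870.4 to 16694) over CK666, CytoD and siArp4+CK666 to siControl (61839.9 to 77382), and no neighbours in this order overlapped. Plin2 was lowest in control (5535 to 5841) and highest in siArp4+CK666 (17144 to 20076), with CytoD and siControl overlapping. Fabp4 was likewise lowest in control and highest in siArp4+CK666 (3324 to 4145).

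The makeup of the droplet coat was described by the share of each perilipin in the summed per-length level of Plin1 to Plin5. Plin2 made up 54.5%, 50.8% and 53.5% in the control libraries and 75.9%, 69.9% and 68.1% with CK666, without overlap. With CytoD its share was 42.3%, 44.0% and 44.7%, below every control library. Since the shares sum to 100%, a larger share of 1 perilipin leaves less for the others. Plin4, a perilipin of adipocytes and muscle, had shares of 31.6% ± 2.03 (SD, n = 3) in control, 19.7% ± 2.91 with CK666 and 40.7% ± 0.918 with CytoD. In mean counts Plin4 stood at 5781 in control, 6184 with CK666 and 13066 with CytoD, where it was called higher, so its smaller share with CK666 was no lower count, and Plin2 counts with CytoD were above control although its share was below. Plin3, a perilipin of many tissues, stood at 15.3% ± 0.375 in control and 8.53% ± 1.17 with CK666. In the transfected cells Plin2 made up 58.6% ± 6.03 in siControl, 69.2% ± 1.55 in siArp4 and 75.3% ± 4.43 in siArp4+CK666. Plin1 stayed at or under 0.646% in every library, although its fold changes were large.

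**Figure D5:**
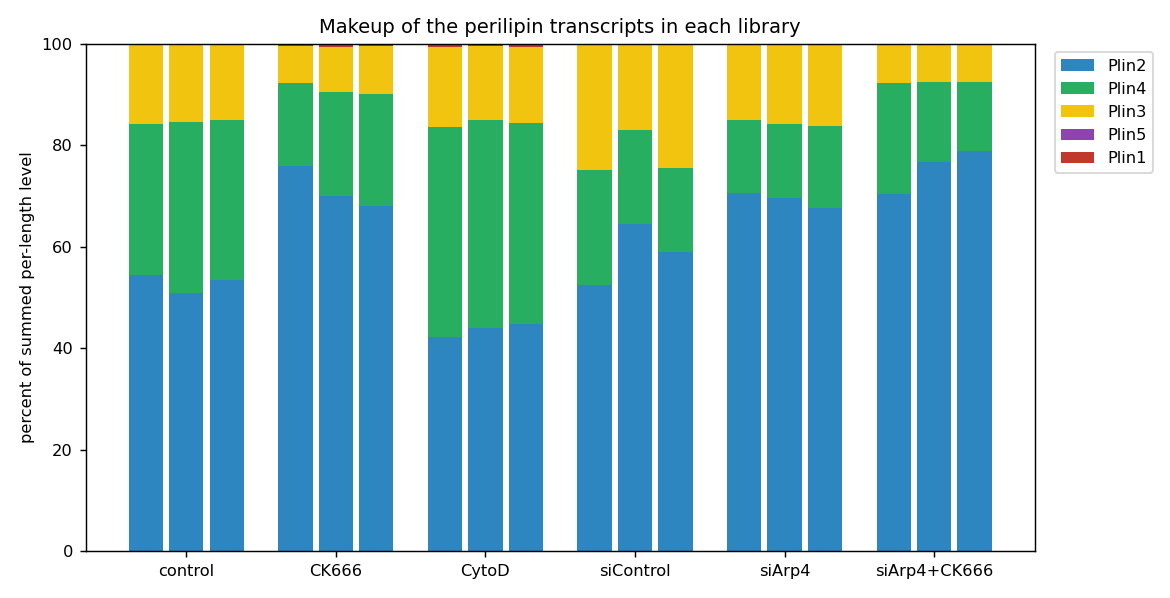
Share of each of Plin1 to Plin5 (percent of their summed per-length level, vertical axis) in each of the 18 libraries, 3 stacked bars per group (horizontal axis). Plin2 is the largest share in every library, from 42.3% with CytoD to 78.9% in siArp4+CK666.

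The balance of the 2 lipases of the droplet differed between groups as well. On the per-length scale Lipe lay −6.17 log2 units from Pnpla2 in control (mean of 3 libraries), −6.32 with CK666 and −5.00 with CytoD, and the 3 CytoD libraries did not overlap the others of that experiment. In transfected cells the mean was −4.70 in siControl, −4.52 in siArp4 and −6.01 in siArp4+CK666. Pnpla2 thus exceeded Lipe in all 18 libraries.

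Other genes of the pathway came from 6 lists with 112 members, of which 87 to 91 could be tested. With CK666 9 of 90 were called higher and 6 lower, with CytoD 10 and 2, with siArp4 10 and 17, and with siArp4+CK666 12 and 18 against siControl. Within the knockdown CK666 raised 4 of 87 and lowered 2. The shares called among all genes, given above, are the background of these counts.

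Among droplet proteins, G0s2, the inhibitor of the lipase encoded by Pnpla2, rose with CK666 from 203 to 1095 mean counts (log2 fold change 2.43, SE 0.24) and with CytoD to 481 (1.25), and fell with siArp4 from 352 to 116 (−1.60). Bscl2, which encodes seipin, a protein of droplet formation, rose with CytoD (1.25) and fell with siArp4 (−2.70), where its siControl libraries spread widely (896 ± 480.2 counts, SD, n = 3). Hilpda, another inhibitor of that lipase, fell with CytoD (−1.04) and rose with siArp4 (2.10), the latter unlike G0s2. Cavin1, a component of caveolae, fell with CK666 (−1.29) and with siArp4 (−1.16). The call of Hilpda with CytoD was lost without control replicate 2 or CytoD replicate 1, that of G0s2 with siArp4 in edgeR's quasi-likelihood test, and that of Cavin1 with siArp4 in that test, without siControl replicate 2 (−0.77) and without siArp4 replicate 3. Counts for the droplet list were 1 higher and 2 lower of 15 with CK666, 4 and 1 with CytoD, and 1 and 3 with siArp4.

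For triglyceride synthesis, 4 of 16 genes tested rose with each drug. CK666 raised Gpat3 (1.80), an enzyme of the first acylation step, Dgat2 (1.48), an enzyme of the last, and Aqp7 (1.21), a glycerol channel. With CytoD it was Dgat1 (1.62), Lpin1 (1.496), a phosphatidate phosphatase, and Aqp7 (1.18). The knockdown raised Lpin2 (1.94), Lpin3 (1.57) and Gpat3 (1.32) and lowered Agpat2 (−3.20), an acyltransferase needed for adipose tissue, from 553 to 60.5 mean counts, and Aqp7 (−1.71). Aqp7 was called higher with CK666 in the knockdown (1.06), a call lost under 9 of 15 alternatives, each of the libraries of these 2 groups among those left out, and with CK666 alone it was 0.90 and not called without CK666 replicate 3.

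Of 15 genes tested for uptake and activation of fatty acids, Vldlr, a receptor for lipoproteins rich in triglyceride, rose with CK666 (1.23). The knockdown raised 4, among them the acyl-CoA synthetases Acsl4 (2.23) and Acsl3 (1.68), and lowered 3, Fabp3 (−1.91), Fabp5 (−1.68) and Acsl5 (−1.35). Angptl4, a secreted inhibitor of lipoprotein lipase, rose in siArp4+CK666 against siControl (1.91). In the list for control of lipolysis, 14 genes were tested and CK666 raised Adra2a (4.63), an adrenergic receptor that lowers cyclic AMP, from 7.24 to 179.9 mean counts, and Pde3b (1.16), a phosphodiesterase under insulin control. It lowered Npr3 (−2.75), the clearance receptor of natriuretic peptides, and Npr1 (−1.07), their signalling receptor. Pde3b was not called without CK666 replicate 3 (0.96), and Npr1 lost its call under 9 of 15 alternatives, among them edgeR's quasi-likelihood test and the fits without control replicate 2 or 3, CK666 replicate 1 or 3 or CytoD replicate 2 or 3. Adra2a was also higher with siArp4 (2.15), and its CK666 effect differed between the settings by −4.23 log2 units.

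The genes whose pattern lay nearest to Adipoq, Plin1 and Plin2 were found among 10054 protein-coding genes by the root mean square difference of the 6 centred group means of log2(normalized count + 1) over 18 libraries. For Adipoq they were Nlrc5 (0.77 log2 units), Sort1 (0.91) and Mtss1l (0.92), and for Plin1 Tmem182 (0.69), Nlrc5 (0.87) and Lrrc39 (0.87). For Plin2 they were Tgif1 (0.14), Pip4k2c (0.15) and Abhd12 (0.15). This distance grows with how far a gene varies, and the SD of the group means was 2.004 for Adipoq, 2.16 for Plin1 and 0.59 for Plin2, so distances are not comparable between them. Among the 10 genes themselves, the closest pairs were Plin2 with Fabp4 (0.45), Fabp4 with Lpl (0.49) and Plin1 with Cidec (0.52).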

How the data were processed

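Per the labels and the methods of the study, the authors quantified unstranded paired-end RNA-seq libraries with Salmon 1.2.1 against GENCODE transcripts of GRCm38 (mm10) and deposited expected counts per gene. The table held 54347 genes in 18 libraries. Of its identifiers, 53307 matched GENCODE vM21 exactly and 787 without the version, and 253 had no match. Counts were rounded to whole numbers, and no library total moved by more than 277. Libraries of each experiment were fitted together in DESeq2 1.42.0 (R 4.3.3) with group as the only term, Wald tests and Benjamini-Hochberg adjustment over all genes tested, and the difference of CK666 effects was fitted over all 18. A gene was called at an adjusted p below 0.01 and an absolute log2 fold change over 1, the thresholds of the study. Per-length levels divided counts by the union of exon lengths and scaled each library to a sum of 1000000. Ero1a was matched under its older name. The numbered replicates share only a number in the labels, and the study describes its MSC as a primary line. The p-values thus measure the spread between preparations of that line, not between separate marrow isolations.

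Alternatives were edgeR 4.0.16 (quasi-likelihood test), TMM size factors, a filter on low counts, no fold minimum, only the 2 groups compared, a replicate block, each library left out, another transcript length for the perilipins and, chosen after seeing the data, removal of a trend with gene length. The same fits were read for list and marker genes, also added after seeing the data. The 10 genes and the lists were chosen with earlier results of these data known. For each list, up to 3 called genes in each direction with the largest change and a mean of at least 20 counts could be named. For Adipoq, Plin1 and Plin2 the 3 nearest protein-coding genes with a mean of at least 100 counts were named. The tests were tried on simulated counts first. A DESeq2 adjusted p that was not given was left out. One result of the lists is not reported here.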

Additional observations from a re-analysis of the deposited data

Results flagged for a closer look

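The effect of CK666 differed between siArp4 cells and untransfected cells, by a test of the difference itself, for 2 of the 10 genes. For Adhfe1 the difference was −3.51 log2 units, with a log2 fold change of 3.26 in untransfected and −0.25 in siArp4 cells. All 3 untransfected control libraries were low for Adhfe1, and the siControl libraries were as high as the CK666 libraries. For Lpl the difference was 1.17 log2 units, with 0.85 in untransfected and 2.03 in siArp4 cells. The knockdown, transfection and experiment cannot be told apart in either case. Groups of 3 libraries were not tested for single outlying values.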

How the results depend on the processing

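Of the 31 calls among the 10 genes, 25 were kept under every alternative. The 6 others were Cidec with either drug, Plin1 with siArp4 and with CK666 in the knockdown, Pnpla2 in siArp4+CK666 and the interaction of Lpl, with values in the report. With no fold minimum, 4 genes in place of 2 differed between CK666 and CytoD. The direction of uncalled values changed for Fabp4 between the drugs with TMM size factors (0.012) and without single libraries (−0.22 to 0.13), for Cidec between the drugs (−1.29 to 0.18), for Plin1 in siArp4+CK666 against siControl (−0.059 to 1.73) and, with the length trend removed, for Adipoq in that comparison (0.017). Leaving out each library in turn gave 6 to 8 calls for CK666 and for CytoD against control, 2 between the drugs, 3 to 5 for siArp4 and 2 to 3 for siArp4+CK666 against siControl, 5 to 6 for CK666 in the knockdown and 2 to 4 for the interaction. The cause of these changes was not tested. Same-numbered libraries did not consistently deviate together, and the numbers were not taken to pair the samples. Over all 18 libraries, correlations ran from −0.63 to 0.73 in the 45 same-numbered pairs of different groups and from −0.76 to 0.68 in the 90 others. With a replicate block 6, 7, 2, 3, 3, 6 and 3 genes were called in these 7 comparisons, against 7, 7, 2, 4, 3, 6 and 2. With the length of the longest transcript the share of Plin2 was 67.3% in control, 81.8% with CK666, 58.6% with CytoD, 71.9% in siControl, 80.4% in siArp4 and 84.8% in siArp4+CK666, in the same order. With 3 libraries a group and few counts, Cidec and Plin1 were the least certain, and intervals of the rare genes cover large changes.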

Other observations

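Of 19 genes of fatty acid oxidation, all tested, 7 were called lower with siArp4 and 8 with siArp4+CK666 against siControl, where 9.49% and 12.4% of all genes were called lower. Cpt1b, a carnitine palmitoyltransferase that admits fatty acids to the mitochondrion, fell with siArp4 from 103 to 9.16 mean counts (log2 fold change −3.49), as did Cpt1c (−1.96) and Acadvl (−1.55), the dehydrogenase for very long chains. The siControl libraries, of which 2 stood apart in the trend with gene length, spread widely for Acadvl (4044 ± 2775 counts, SD, n = 3) and for Etfb (5412 ± 2328). With the length trend removed 7 of the 19 were called lower in each comparison, and without siControl replicate 2 it was 5 with siArp4 and 6 with siArp4+CK666. Acadvl was −0.85 without siControl replicate 2 and not called, and its call was also lost without siArp4 replicate 2 or 3 and in edgeR's quasi-likelihood test. Between the drugs Acadm, the medium-chain dehydrogenase, was lower with CK666 (−1.26).

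Among 11 tested genes of adipokines and adiponectin handling, Ero1a, an oxidase of the endoplasmic reticulum that takes part in the release of adiponectin, rose with CK666 from 2200.4 to 11267 mean counts (2.36) and with siArp4 (1.44), whereas Adipoq rose in the first and fell in the second of these comparisons. Rarres2, which encodes the adipokine chemerin, rose with CytoD (1.76) and fell with siArp4 (−2.81). Apln, which encodes apelin, fell with both drugs (−1.95 and −1.51).

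Of 12 stromal marker genes, 10 were tested and CK666 lowered Col1a1, the main collagen chain of bone and stroma, from 60080 to 21569 mean counts, together with Ly6a, whose call was lost without control replicate 1 or CK666 replicate 3. With siArp4 Col1a1 rose, from 25998 ± 7739 to 84628 ± 4055 counts (SD, n = 3), and within the knockdown CK666 lowered it to 34282. With CytoD Col1a1 stood at 55622 counts and was not called. Cxcl12, a chemokine of marrow stroma, rose with CytoD from 34517 to 107667 mean counts and fell with siArp4 from 65306 to 12265, so the stromal markers did not all change one way. The part of the makeup of the cultures in the values of the 10 genes was not tested. Of 8 osteoblast markers, 6 were tested, and with each drug 2 were called higher and none lower. These were Bglap2 and Bglap, near-identical osteocalcin genes whose reads may be shared. Runx2, Spp1, Alpl and Sp7 were not called with either drug. Bglap was at 0 in all 3 control libraries and at 7.44 to 11.2 counts with CK666. With 1 library left out, Bglap was not called in 1 fit with CK666 and in 3 with CytoD.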
